A study of Mus musculus with 8 samples.

Results

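Lactylation of histone H4 at lysine 12 (H4K12la) was compared between total brain cells of 5XFAD mice and of wild-type (WT) mice. The comparison rests on 4 of the 8 peak lists of the series, 2 libraries for each genotype, chosen by the cell type and genotype in their labels. The other 4 lists come from microglia of the same genotypes and were used here only as a reference. Both groups were brains without cerebellum from perfused mice, dissociated with enzymes and cleared of myelin debris, with no further treatment named. 5XFAD mice carry mutated human transgenes of familial Alzheimer disease under a mouse Thy1 promoter, which is active mainly in neurons. The labels give no age, sex or strain background, and leave unsaid whether replicate libraries were made from different mice. The p-values below thus describe only how these samples spread.

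Histone lactylation is an acyl mark whose donor derives from lactate, the end product of glycolysis, and it lies mainly at active promoters and enhancers. In the brain, lactate is made and exchanged by astrocytes, neurons and microglia, the resident macrophages. In CUT&Tag, the assay used, an antibody brings a transposase to chromatin with the mark, and the DNA cut beside it is sequenced. Total cells are a mixture, so more cells of a type and more marked chromatin per cell cannot be told apart. The lists hold no read counts and depth is unknown, so the absence of a peak means only that none was listed.

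The WT lists held 25271 and 22543 peaks, and the 5XFAD lists 32967 and 22807. Their covered length was 9.61 and 7.78 Mb in WT and 14.8 and 8.61 Mb in 5XFAD. Library 5XFAD 1 stood apart by its length, while 5XFAD 2 lay between both WT libraries in number of peaks. The mean numbers, 27887 ± 7184 in 5XFAD and 23907 ± 1929 in WT (SD, n = 2), were not separated by an exact two-sided permutation test (p = 0.667). With 2 libraries against 2, the smallest p that this test can give is 0.333, so no genotype test over these libraries can pass 0.05. Without 5XFAD 1 the difference in number turned to -1100 peaks. Because of this gap, each count below is also given for the 22543 peaks with the highest score of each list, called equal numbers. The score is the authors' own whole number per peak, and it is quoted as a percentile within its own list.

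The mixture was checked against marker genes, counting a gene as marked when a peak overlapped the 2 kb on either side of either annotated end. Of 20 neuronal identity genes, 15 had no such peak in any of the 4 libraries. The same held for 13 of 15 genes of oligodendrocytes and their precursors, 8 of 15 astrocyte genes, 8 of 21 homeostatic microglia genes and 14 of 15 genes of other leukocytes. Of all 21887 protein-coding genes, 10690 (48.8%) had no such peak, so neuronal, oligodendrocyte and leukocyte genes were without one more often than all genes, astrocyte genes about as often and microglia genes less often. These counts are a description, with no test. The Y-linked genes Ddx3y and Eif2s3y had a peak in WT 2 and in both 5XFAD libraries, and WT 1 had none at Ddx3y, Eif2s3y, Uty or Kdm5d. WT 1 listed 4 peaks on the whole Y chromosome, WT 2 listed 3 and the 5XFAD libraries 9 each, and Xist had no peak anywhere. The part of sex in the differences below was not tested.

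The one-genotype peaks with the highest scores lay at Thy1. Thy1 encodes a surface glycoprotein of neurons and T cells, and its regulatory sequence drives both transgenes of 5XFAD mice. The gene (21838; chromosome 9, 44043384 to 44048579, GRCm38) had 4 peaks in 5XFAD 1, 4 in 5XFAD 2 and none in either WT library. In 5XFAD 1 their scores ranked 15, 22, 28 and 5 among all peaks of the list, and in 5XFAD 2 they ranked 11, 22, 33 and 7. The third peak had the same ends in both lists, 44044473 to 44045834. The same 4 places had a peak in each microglia library of 5XFAD mice, at percentiles from 63.1 to 93.9, and none in the WT microglia libraries. All 4 libraries that carry the transgenes thus listed Thy1 peaks and the 4 without them did not. Reads from the transgene's Thy1 sequence and from the gene itself cannot be told apart in these lists.

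**Figure D1:**
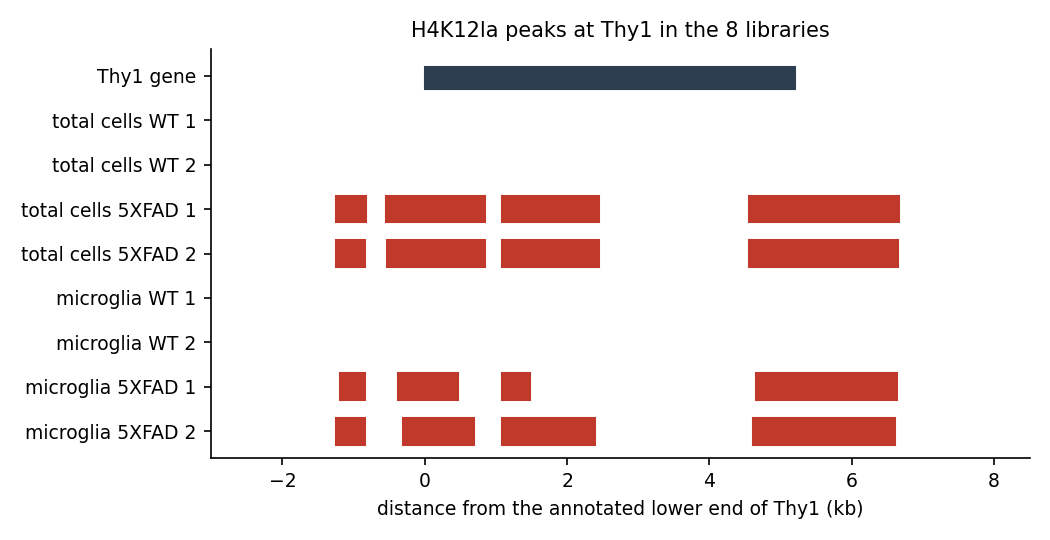
Peaks at Thy1 in the 8 libraries, one row each, by distance in kb from the lower annotated end of the gene; the dark bar is the annotated gene. The 4 libraries of 5XFAD mice each show 4 peaks at matching places, and the 4 WT libraries show none.

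Merging the 4 total cell lists wherever peaks overlapped by 1 base or more gave 53199 regions. Of these, 27523 (51.7%) had a peak in a single library and 8271 (15.5%) in all 4. A region is called 5XFAD-only when both 5XFAD lists and neither WT list hold a peak there, and WT-only in the reverse case. The words gain and loss stand below for these 2 patterns of listed peaks, which no test of single regions supports. There were 4202 5XFAD-only regions (7.9% of all regions) and 2506 WT-only regions (4.71%). The 4 ways of pairing 1 WT with 1 5XFAD library gave 474 to 1871 regions, fewer than either pair of one genotype. With equal numbers the counts came closer, at 3212 5XFAD-only and 2889 WT-only regions, against 734 to 1007 for the mixed pairs. Leaving out a library changed the balance: without 5XFAD 1 it was 9130 against 4829 and without 5XFAD 2 it was 15616 against 3170. Without WT 1 it turned to 6295 against 7758 and without WT 2 to 5595 against 9091. Each such count rises, since the rule then asks for a peak, or for the lack of one, in 1 library fewer. The genotype left with 1 library had the larger count each time, since the rule then asks it for a peak in that library alone. The turn of the balance thus follows the rule and cannot show that it depends on a given library.

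One-genotype regions were narrow and of middling score. Their median width was 433 bp in 5XFAD-only and 353 bp in WT-only regions, against 721 bp in regions held by all 4 lists. Their median mean score percentile was 45.0 and 42.4, against 73.7 in regions of all 4 lists. A peak of the other genotype lay within 1 kb of 11.97% of 5XFAD-only and 13.5% of WT-only regions, and for most of these regions the nearest such peak was farther away. Their share of a chromosome's regions ran from 6.997% (chromosome 6) to 9.09% (X) for 5XFAD-only and from 3.804% (chromosome 11) to 5.97% (chromosome 19) for WT-only regions. The Y chromosome, with only 11 regions, stands outside these ranges, with 3 5XFAD-only regions (27.3%) and 0 WT-only regions.

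Most gains and losses lay inside genes, away from their ends. Regions were called gene-end where they overlapped a gene-end window, intragenic where they lay elsewhere in a gene body, and distal where they lay outside both. Among 5XFAD-only regions 879 were gene-end (6.52% of the gene-end regions), 2491 intragenic (8.4%) and 832 distal (8.26%). Among WT-only regions 494 were gene-end (3.67%), 1388 intragenic (4.68%) and 624 distal (6.19%). Gene ends thus made up 20.9% of 5XFAD-only and 19.7% of WT-only regions, against 49.9% of the regions in all 4 lists. Distal regions made up 19.8% of 5XFAD-only and 24.9% of WT-only regions. With equal numbers 5XFAD-only regions were still more numerous at gene ends (699 against 593) and inside genes (1876 against 1607), while distal regions turned to 637 against 689. Within 2 kb of a RefSeq start site lay 5.94% of the 5XFAD-only and 5.84% of the WT-only intragenic regions, close to the 6.35% of every intragenic region, and 14.1% of those of all 4 lists.

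**Figure D2:**
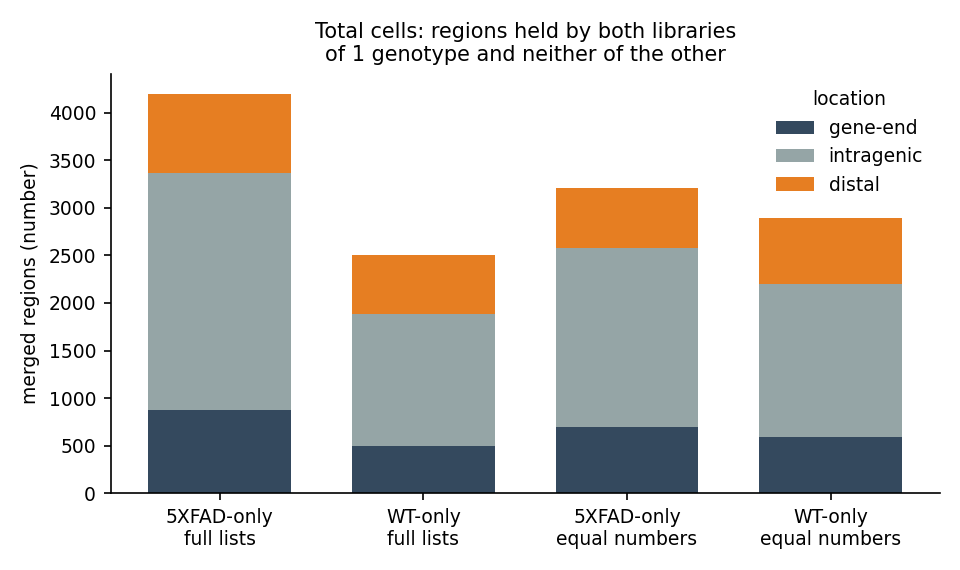
Number of merged regions held by both libraries of 1 genotype and neither of the other, stacked by location, for the full lists and for the 22543 highest-scoring peaks of each. The full lists show 4202 5XFAD-only against 2506 WT-only regions, and equal numbers show 3212 against 2889.

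Per library, the distal share of peaks was 17.8% and 17.9% in WT and 17.3% and 16.4% in 5XFAD. Both 5XFAD values lay below both WT values, with a mean difference of -0.985 percentage points (16.9 ± 0.595 against 17.8 ± 0.0387, SD, n = 2, exact two-sided permutation p = 0.333). The intragenic share was 50.3% and 48.9% in WT and 53.2% and 50.4% in 5XFAD, a difference of 2.16 points (exact two-sided permutation p = 0.333). The gene-end share was 31.8% and 33.2% in WT and 29.5% and 33.2% in 5XFAD, a difference of -1.17 points (exact two-sided permutation p = 0.667) that turned to 0.430 with equal numbers and to 0.631 without 5XFAD 1. In the full lists the distal and the intragenic values thus did not overlap between genotypes. With a score of at least 50 they did overlap: the distal difference was -0.278 points (exact two-sided permutation p = 1.0) and the intragenic difference 2.41 points (exact permutation p = 0.667). With the higher-scoring 50% of each list the differences were -0.431 and 1.80 points, each with p = 0.667 by the same exact permutation test. With equal numbers the intragenic difference was 0.767 points (exact permutation p = 0.333).

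The distal gains and losses differed in whether microglia carried the same peak. Of 832 5XFAD-only distal regions, 59.3% and 71.2% overlapped a peak of the 2 WT microglia lists and 72.4% and 79.7% one of the 2 5XFAD microglia lists. Of 624 WT-only distal regions, 4.81%, 11.2%, 8.33% and 14.1% did, in the same order. All 4 microglia lists held 55.9% of the 5XFAD-only and 2.88% of the WT-only distal regions, against 24.3% of every distal region. Of the distal regions in all 4 total cell lists they held 54.5%, close to the share of the 5XFAD-only ones. The reference of every region includes regions of a single library, which made up 51.7% of all regions. Intragenic regions showed the same order, with 50.2% to 72.1% of 5XFAD-only and 8.14% to 17.9% of WT-only regions in a given microglia list. For every intragenic region the range was 26.02% to 41.9%. At gene ends the ranges were 48.2% to 77.7% and 19.8% to 42.3%, and 45.0% to 67.0% for every gene-end region, so gains there lay near the background. All 4 microglia lists held 45.0% of the 5XFAD-only intragenic and 40.8% of the 5XFAD-only gene-end regions. These shares were below the 50.8% and 71.2% of such regions in all 4 total cell lists. Over all locations 876 5XFAD-only regions (20.8%) and 1798 WT-only regions (71.7%) had no microglia peak. The share was 45.9% of all 53199 regions and 11.8% of those in all 4 total cell lists. Regions are not replicates, so no test was made on these shares.

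The order of these shares held when each total cell library was left out in turn. The share of all 5XFAD-only against WT-only regions held by all 4 microglia lists was 46.3% against 6.07% with every library. It was 31.4% against 14.0% without 5XFAD 1 and 27.5% against 8.64% without 5XFAD 2. Without WT 1 it was 46.9% against 5.52%, and without WT 2 46.3% against 5.47%. The narrowest contrast was at gene ends without 5XFAD 1, at 29.7% against 26.005%. With equal numbers 65.5% to 84.8% of 5XFAD-only and 6.39% to 16.0% of WT-only distal regions lay in a given microglia list.

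The same order stood in each library taken alone, before any rule on genotypes. Among all distal peaks, 22.9% of WT 1 and 23.3% of WT 2 were held by all 4 microglia lists, against 37.1% of 5XFAD 1 and 41.8% of 5XFAD 2. For intragenic peaks the shares were 22.7% and 23.2% in WT and 30.8% and 36.9% in 5XFAD, again without overlap. For gene-end peaks they were 47.7% and 49.4% in WT and 48.1% and 53.9% in 5XFAD, which overlapped. With equal numbers, 5XFAD 1 and 5XFAD 2 reached 55.1% and 54.2% at gene ends, above the WT values of 49.8% and 49.4%. The cell composition of these libraries was not measured, and its part in the result was not tested.

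**Figure D3:**
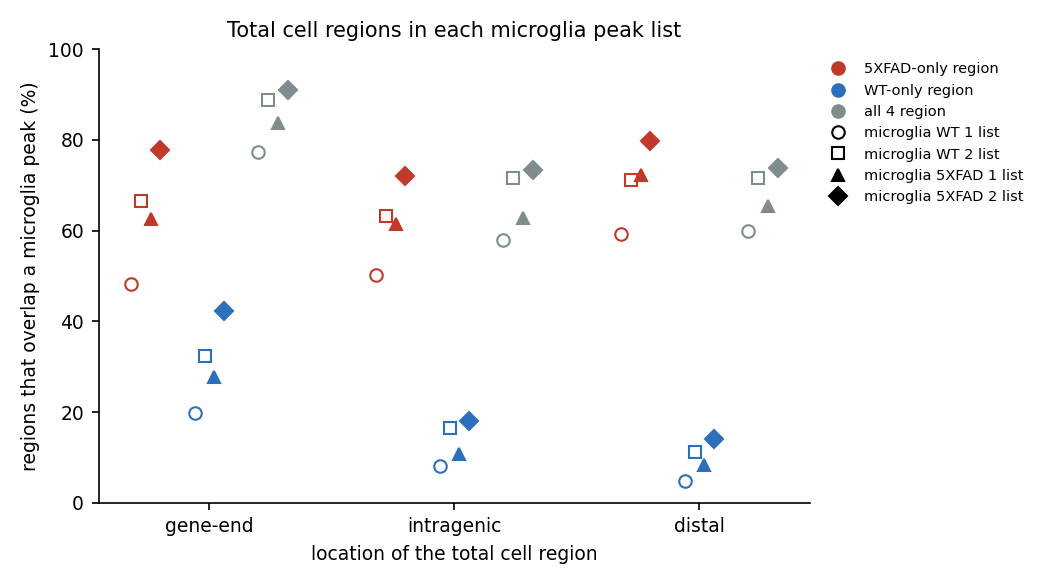
Percentage of total cell regions that overlap a peak of each microglia list, by location of the region; colours mark 5XFAD-only, WT-only and all 4 regions, symbols the 4 microglia lists (open for WT, filled for 5XFAD). 5XFAD-only distal regions lie between 59.3% and 79.7%, and WT-only distal regions between 4.81% and 14.1%.

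Distal 5XFAD-only regions lay somewhat nearer to genes. Their median distance to the nearest protein-coding gene was 23.0 kb, against 29.8 kb for WT-only regions, 20.03 kb for distal regions of all 4 lists and 25.7 kb for every distal region. Within 10 kb lay 27.0% of 5XFAD-only and 22.4% of WT-only distal regions, and beyond 200 kb lay 6.85% and 9.13%. These distances are a description, with no test.

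Named distal regions are those with the highest mean percentile in both lists, among regions that were also one-genotype with equal numbers. The nearest gene is given for its position alone. Of the 10 such 5XFAD-only regions, 6 were in all 4 microglia lists and none was without a microglia peak. The region at chromosome 9, 25167445 to 25167912 (percentiles 97.5 and 93.0), lay 15.6 kb from Herpud2 and was in all 4 microglia lists. A 1364 bp region at chromosome 16, 77400012 to 77401375 (94.7 and 94.2), lay within the noncoding gene Mir99ahg and was in all 4 as well. On the same chromosome a region at 76110300 to 76111191 (95.7 and 91.7) lay 176 kb from Nrip1, which encodes a nuclear receptor corepressor. Regions near Vrk1, Prl5a1, Zdhhc25, Tafa5, Zbtb33, Mzt1 and Mpp7 completed the 10.

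Of the 10 named WT-only distal regions, 7 had no microglia peak and none was in all 4 microglia lists. The highest was at chromosome 13, 4771302 to 4771752 (99.1 and 98.3), 162 kb from Akr1e1, with a peak in 2 microglia lists. A region at chromosome 13, 48125342 to 48125667 (92.5 and 95.5), lay 135 kb from Id4, a regulator of neural stem cells and glial differentiation, and was in no microglia list. Another at chromosome 5, 104131697 to 104132057 (95.6 and 91.6), lay 17.6 kb from Sparcl1, which encodes a matrix protein secreted by astrocytes, and was also in none. The rest lay near Ece1, Pdp1, Fmnl2, Prdm1, Spock1, Hnrnpk and Phf19.

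Inside genes, 1753 protein-coding genes (8.01% of 21887) held at least 1 5XFAD-only intragenic region and 1085 (4.96%) at least 1 WT-only region. Of these, 383 genes held both kinds, 21.8% of the former and 35.3% of the latter. Genes with intragenic regions of either kind were long, with a median length of 84.8 kb for 5XFAD-only and 114 kb for WT-only, against 17.2 kb for all genes. Length must therefore be kept in view in the counts that follow, since a long gene offers more room for regions.

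Hdac9, which encodes a class IIa histone deacetylase, held the most 5XFAD-only intragenic regions, 7 over 870 kb, and no WT-only region. Of these 7, 3 were in all 4 microglia lists. The highest of them (chromosome 12, 34662892 to 34663505) stood at percentiles 86.3 and 93.6, and the lowest at 0.0728 and 2.48. Ets1, a transcription factor of lymphoid and endothelial cells, held 6 over 122 kb and no WT-only region. Its best region (chromosome 9, 32720211 to 32721157) stood at 76.0 and 81.1 and was in all 4 microglia lists. Rad51b, a DNA repair gene, also held 6 and no WT-only region, and 5 of the 6 were in all 4 microglia lists. With 6 regions each followed Dip2b, Ncoa2 (a nuclear receptor coactivator), Gnaq (a G protein subunit), Snx29, Dnm3 (a dynamin) and Foxp1 (a forkhead transcription factor). These 6 genes also held WT-only regions, 2 in Dnm3 and 1 in each of the others.

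Zbtb20, a transcription factor needed for hippocampal and astrocyte development, held the most WT-only intragenic regions, 9 over 759 kb, with 1 5XFAD-only region. Of the 9 WT-only regions, 8 had no peak in any microglia list. The exception, at chromosome 16, 43170753 to 43171102, also stood highest, at percentiles 79.98 and 91.8. Zbtb20 held 20 further intragenic regions common to all 4 total cell lists, so its losses stood among many shared regions. Sox6, a transcription factor of interneuron and oligodendrocyte lineages, held 6 WT-only regions, no 5XFAD-only region and no microglia peak at any of the 6. Its region at chromosome 7, 115666744 to 115666968, stood at 92.7 and 94.7. Plcb1 (a phospholipase C of neurons) and Rora (a nuclear receptor of cerebellar and cortical neurons and astrocytes) each held 6 WT-only regions, none with a microglia peak, beside 1 and 2 5XFAD-only regions. Fam171a1 and Arhgap26 had 6 each too, with 1 and 2 5XFAD-only regions beside them. Ties at 6 regions put more than 5 genes on either side.

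**Figure D4:**
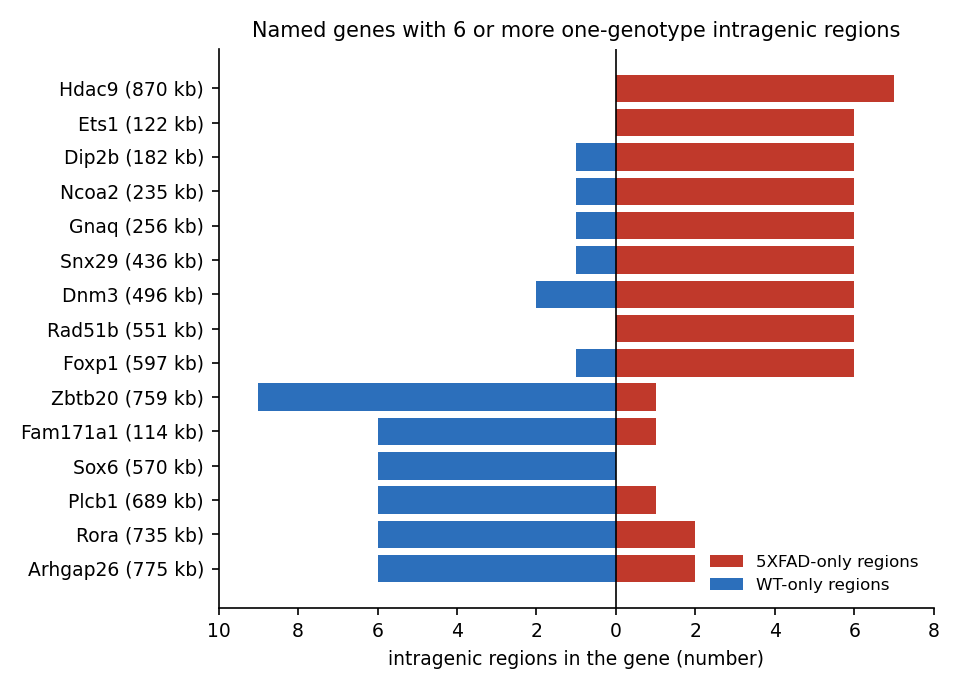
Number of 5XFAD-only (right) and WT-only (left) intragenic regions in the named genes with 6 or more of either kind; gene length in kb stands in brackets. Hdac9 leads the 5XFAD-only side with 7 regions, and Zbtb20 the WT-only side with 9.

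Single intragenic regions with high scores were of both kinds. The 5XFAD-only region with the highest score lay in Tusc3 (chromosome 8, 39152848 to 39153258; percentiles 99.8 and 99.7), which encodes a subunit of the oligosaccharyltransferase complex, and was in no microglia list. Another, in Itpr2 (chromosome 6, 146112800 to 146113706; 97.5 and 98.1), which encodes a calcium release channel of the endoplasmic reticulum, was in all 4. Itpr2 held 5 5XFAD-only and 5 WT-only regions. Of its 5XFAD-only regions 4 were in all 4 microglia lists, and of its WT-only regions 4 had no microglia peak. The 5XFAD-only region of Gm14393 (97.7 and 98.5), like gene-end regions at Gm14410 (99.5 and 99.3) and Gm14305 (92.6 and 95.9), lies in a cluster of near-identical zinc finger genes on chromosome 2, so its reads may not be uniquely placed. Among the 10 named 5XFAD-only intragenic regions 7 were in all 4 microglia lists, in Itpr2, Rab5a, Bbs9, Tnrc18, Smco4, Synpo2 and Snx29. Among the 10 WT-only ones 8 had no microglia peak, in Pdzph1, Atg10, Sox6, Arhgap26, Ptpdc1, Lrp1b, Negr1 and Ttc23. Lrp1b (a neuronal lipoprotein receptor; chromosome 2, 41263744 to 41264598) stood at 97.9 and 86.7, and Negr1 (a neuronal adhesion protein; chromosome 3, 157201780 to 157202333) at 92.7 and 91.6.

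At gene ends, 680 protein-coding genes (3.11%) were 5XFAD-only and 358 (1.64%) WT-only, while 5000 (22.8%) were marked in all 4 libraries. With equal numbers the counts were 578 and 473. All 4 microglia lists also marked 339 of the 680 5XFAD-only genes at a gene end, and 80 of the 358 WT-only genes (49.9% and 22.3%). They marked 3871 of the 5000 genes of all 4 libraries and 1817 of the 5159 genes with another pattern of peaks. The share of all genes was 29.4%, but this includes 10690 genes without a total cell peak, of which 329 were so marked. The 29.4% is thus no reference for genes that have a peak. Restricting the test to 12616 genes whose windows overlap no other left 300 (2.38%) and 154 (1.22%). The gene lists below were described by their counts against these shares.

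Genes of microglia were among the 5XFAD-only genes. Of 25 disease-associated microglia genes 5 were 5XFAD-only and 1 was WT-only, and of 21 homeostatic microglia genes 2 were 5XFAD-only and none WT-only. Tyrobp, the signalling adaptor of the TREM2 receptor, stood at percentiles 65.3 in 5XFAD 1 and 36.0 in 5XFAD 2. Lgals3, which encodes galectin-3, stood at 73.3 and 67.7. Axl, a receptor for apoptotic cells, stood at 29.0 and 72.0, and Lpl, lipoprotein lipase, at 14.1 and 44.6. All 4 microglia lists marked these 4 genes as well, whereas Lyz2, which encodes lysozyme (78.1 and 40.8), was marked only in the 2 5XFAD microglia lists. The purinergic receptor genes P2ry12 (75.5 and 59.3) and P2ry13 (46.4 and 53.5), used as markers of resting microglia, were marked in all 4 microglia lists. Cd9, a tetraspanin gene of the disease-associated list, was WT-only at 33.0 and 54.5. By library, gene-end peaks stood at 8 and 9 of the 25 disease-associated genes in WT (32% and 36%) and at 15 and 14 in 5XFAD (60% and 56%), without overlap. Over all protein-coding genes the shares were 36.5% and 34.2% in WT and 41.8% and 34.7% in 5XFAD. The WT shares of this list thus lay near those of all genes, and 5XFAD 1 had the highest share of all genes too. For the 21 homeostatic genes the counts were 5 and 7 in WT and 12 and 7 in 5XFAD, which met at 7.

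Inside the gene body, 3 of the 21 homeostatic microglia genes (14.3%) held a 5XFAD-only region and 1 (4.76%) a WT-only region. The shares of all protein-coding genes were 8.01% and 4.96%. None of the 25 disease-associated genes held an intragenic region of either kind. Both lists had a median gene length below that of all genes. These are counts of few genes, with no test. P2ry12 held 2 5XFAD-only intragenic regions, and Itgam (the CD11b subunit) and Sall1 (a transcription factor of microglial identity) 1 each, against 1 WT-only region in Spi1. The Sall1 region (chromosome 8, 89031199 to 89032103) stood at 67.0 and 68.5 and was in all 4 microglia lists. No gene of the list of other leukocytes was one-genotype, at its ends or inside.

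Inside genes of the synaptic scaffold and vesicles losses outnumbered gains, in few genes, while receptor genes followed the order of all genes. At gene ends the neuronal identity and channel genes showed 2 gains each and no loss. Of 21 genes of the synaptic scaffold and vesicles, 4 held 6 WT-only intragenic regions and 2 held 3 5XFAD-only ones. Nlgn1 (a neuroligin), Rims1 and Camk2a held 1 WT-only region each, while Homer1 held 2 and Shank1 1 5XFAD-only region. Over all protein-coding genes 4.96% held a WT-only and 8.01% a 5XFAD-only intragenic region. The median gene length of this synaptic list was 96.7 kb, against 17.2 kb for all genes, and the part of length in these counts was not tested. Among the 18 voltage-gated channel genes, Cacna1c, a calcium channel, was 5XFAD-only at its ends (72.6 and 39.2) but held 2 WT-only regions inside. Kcnma1, a potassium channel, was 5XFAD-only at its ends (43.0 and 49.4) with 2 5XFAD-only and 1 WT-only regions inside. For glutamate and GABA receptors 2 of 20 genes held a 5XFAD-only (Grm5 and Gabbr1) and 1 a WT-only intragenic region (Gabrb1). These shares, 10% and 5%, lay near those of all genes, in a list with a median gene length of 324 kb. Among the 20 immediate early genes Egr1 was WT-only at its ends (75.5 and 18.3), and Nr4a1 held 1 5XFAD-only intragenic region (3.47 and 14.02).

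Glial genes were split, while the vascular list held gains alone. Of the 15 vascular genes 3 (20%) held a 5XFAD-only intragenic region. Of the 15 oligodendrocyte genes 3 (20%) held a WT-only and 1 (6.67%) a 5XFAD-only one. Over all protein-coding genes 8.01% held a 5XFAD-only and 4.96% a WT-only intragenic region. The astrocyte connexin gene Gjb6 was WT-only (27.9 and 11.8) with no microglia peak, and the astrocyte glutamate transporter gene Slc1a3 was 5XFAD-only (46.4 and 94.7) with a peak in all 4 microglia lists. Slc4a4, a bicarbonate transporter of astrocytes, held 3 WT-only intragenic regions, none with a microglia peak, the highest at 78.3 and 32.6. In oligodendrocyte genes, Ugt8a, Cspg4 and Myrf held 1 WT-only region each without a microglia peak, and Mbp held 2 5XFAD-only regions, 1 of them in all 4 microglia lists. In the vascular list, the endothelial gene Pecam1 was 5XFAD-only at its ends (58.2 and 3.52) and held 3 5XFAD-only regions inside. Vwf and Flt1 held 1 each, and no gene of that list held a WT-only region. Genes whose gains overlapped microglia peaks thus included markers of other cell types.

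**Figure D5:**
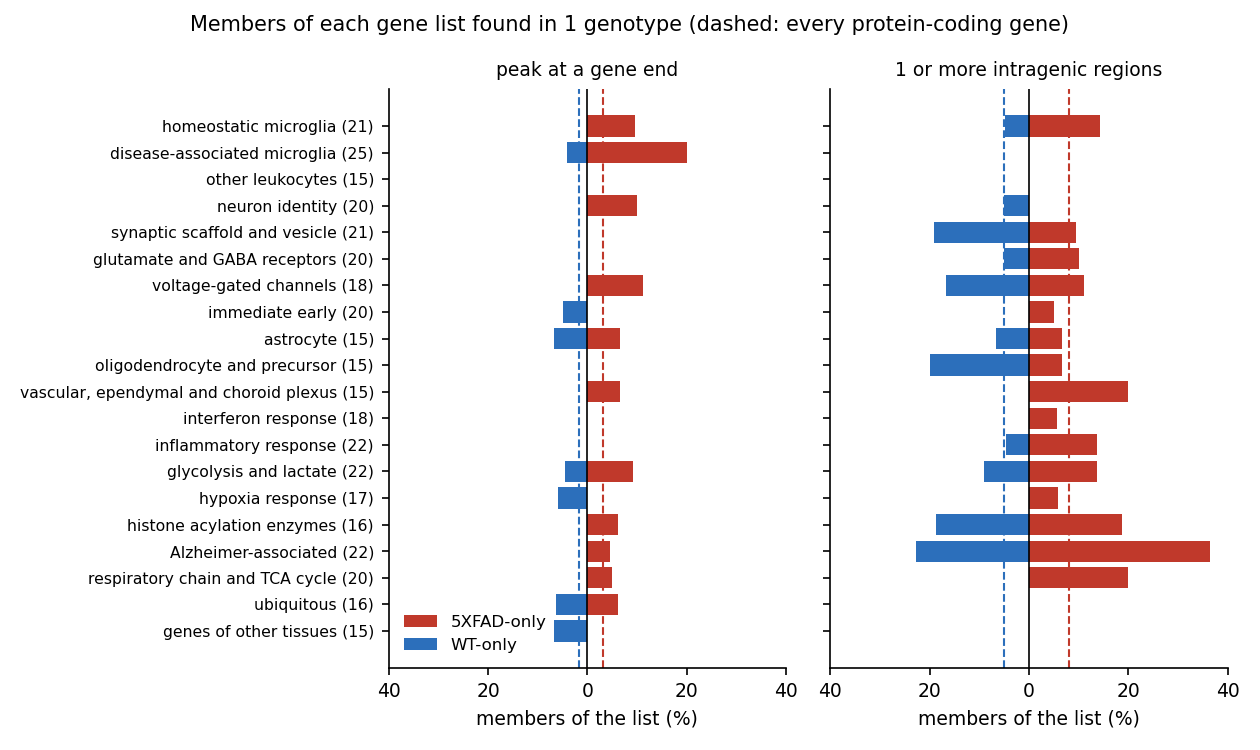
Percentage of the members of each gene list that were 5XFAD-only (right) or WT-only (left), by a peak at a gene end and by at least 1 intragenic region; the number of members stands in brackets and dashed lines mark every protein-coding gene (3.11% and 1.64% at gene ends, 8.01% and 4.96% inside genes). Among disease-associated microglia genes 5 of 25 were 5XFAD-only at a gene end.

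Genes that make and move lactate were found on both sides. Of 22 glycolysis and lactate genes, 2 (9.09%) were 5XFAD-only and 1 (4.55%) was WT-only at gene ends, while 5 were marked in all 4 libraries. Over all protein-coding genes the shares were 3.11%, 1.64% and 22.8%, so the 5 lay near the share of all genes. Inside them, 3 (13.6%) held a 5XFAD-only and 2 (9.09%) a WT-only intragenic region, against 8.01% and 4.96% of all genes. These are counts of few genes, with no test. Slc16a3, which encodes the lactate exporter MCT4, was 5XFAD-only at 72.6 in 5XFAD 1 and 4.595 in 5XFAD 2. Gapdh was 5XFAD-only at 36.2 and 55.4. Pkm, which encodes pyruvate kinase, was WT-only at 77.8 and 74.5, and its gene ends had a peak in all 4 microglia lists. Slc16a7, the monocarboxylate transporter MCT2, held 2 5XFAD-only intragenic regions. Ldha, lactate dehydrogenase A, held 1 WT-only intragenic region (66.4 and 36.9), and Gpi1 1 5XFAD-only one (3.47 and 31.9). Pfkfb3 held 1 of each kind. Of 20 genes of the respiratory chain and TCA cycle, 14 were marked at their ends in all 4 libraries. Idh3g, an isocitrate dehydrogenase subunit gene, was 5XFAD-only there (57.2 and 26.01). Sdhb, Cs and Ogdh were among the 4 genes (20%) that held 1 5XFAD-only intragenic region each, against 8.01% of all genes. None of the 20 held a WT-only one, against 4.96% of all genes. Among 17 hypoxia response genes Vhl was WT-only at 7.53 and 45.6, and P4ha1 held 1 5XFAD-only intragenic region.

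Among histone acylation enzymes and Alzheimer-associated genes, one-genotype regions lay mostly inside the gene. The same held for the whole set, where 59.3% of 5XFAD-only and 55.4% of WT-only regions were intragenic. Of the 16 histone acylation genes 3 (18.8%) held a 5XFAD-only and 3 a WT-only intragenic region. Kat7, a histone acetyltransferase gene, was 5XFAD-only at its ends (36.2 and 64.6). Kat6b held 3 5XFAD-only and 1 WT-only intragenic regions, Ep300 1 5XFAD-only, and Kat6a and Crebbp 1 WT-only each. The Kat6a region (chromosome 8, 22934569 to 22934857) stood at 88.4 and 93.4 and had no microglia peak. Of 22 Alzheimer-associated genes 8 (36.4%) held a 5XFAD-only and 5 (22.7%) a WT-only intragenic region, and 1 was 5XFAD-only at its ends. The last was Sorl1, a sorting receptor for the amyloid precursor, at the low percentiles of 0.822 and 9.54. Inpp5d, an inositol phosphatase of myeloid cells, held 3 5XFAD-only and 1 WT-only regions, and all 4 microglia lists had a peak at each. App, which encodes the amyloid precursor, held 1 5XFAD-only region (17.98 and 37.6) and 2 WT-only regions (30.5 and 62.6, and 34.6 and 49.4). Abca1, a lipid exporter, also held 1 and 2, and Mef2c, a transcription factor of neurons and microglia, 1 and 1. Over all protein-coding genes 8.01% held a 5XFAD-only and 4.96% a WT-only intragenic region. The Alzheimer-associated list had a median gene length of 75.4 kb, against 17.2 kb for all genes, and the part of length was not tested. Of 18 interferon response genes 15 were marked in all 4 libraries and none was one-genotype at its ends. None of the 22 inflammatory genes was either, and inside them Nfkb1, an NF-kappa-B subunit gene, held 2 5XFAD-only and 1 WT-only regions, and its feedback regulators Tnfaip3 and Nfkbiz 1 5XFAD-only region each. Ubiquitous genes and genes of other tissues, listed as a reference, gave Gapdh on the 5XFAD-only side and Polr2a (58.4 and 36.9) and the liver gene Apoa1 (27.9 and 66.1) on the WT-only side.

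Among the named gene-end regions other than those of Thy1, the 5XFAD-only side included Plk4 (a kinase of centriole duplication; 95.5 and 95.5), Qdpr (dihydropteridine reductase; 94.9 and 94.3), the window shared by Dis3 and Pibf1 (92.9 and 97.2), Arhgap18 (89.8 and 97.6) and Hgf (hepatocyte growth factor; 95.5 and 82.9). On the WT-only side the highest were Spag9 (a kinase scaffold; 98.7 and 96.1, no microglia peak), the window shared by Med14 and 1810030O07Rik (95.1 and 97.4) and Sf3b6 (a splicing factor; 92.7 and 97.5). Pcx, which encodes pyruvate carboxylase, an enzyme of astrocytes, was WT-only at 94.0 and 85.9, and Cyc1, cytochrome c1, at 82.6 and 96.4. Of the 20 regions on each side, 9 of the 5XFAD-only and 5 of the WT-only were in all 4 microglia lists, and 2 and 6 were in none.

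Promoters of one-genotype genes were compared by sequence, using the 32851 RefSeq promoters of 300 bases (250 before the start site and 50 after it; GRCm38.p6). A peak covered part of the promoter in both 5XFAD and neither WT library at 620 promoters (1.89%) and in the reverse case at 320 (0.974%). Both kinds were rich in G and C, with a median of 60% and 61.3%, like the 61.3% of the 3648 promoters covered in all 4 libraries, against 52.7% for every promoter. The GC box (GGGCGG or CCGCCC, the core of Sp factor motifs) was found in 56.8% of 5XFAD-only and 64.1% of WT-only promoters. It was found in 66.2% of those of all 4 libraries and in 35.7% of every promoter. An ETS motif (CCGGAAGT on either strand) was found in 9.52% of 5XFAD-only and 4.06% of WT-only promoters, against 10.1% of those of all 4 libraries and 3.89% of every promoter. A motif of PU.1, the ETS factor of macrophages (GAGGAAGT on either strand, which shares its last 6 letters with the former), was found in 4.03%, 3.44% and 3.20% of 5XFAD-only, WT-only and every promoter. Promoters of all 4 libraries held it in 3.07% of cases. These are matches of letters, given with no test.

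The promoters of 4 genes show where such peaks lay. They were chosen after their values were seen, because the peak covered part of the promoter in both libraries of a genotype and the gene is a microglial, lactate-pathway or astrocyte gene. Each is printed 5′ to 3′ on the gene's strand, with GC boxes in capitals. Lgals3 and Slc16a3 are 5XFAD-only, and Pkm and Gjb6 are WT-only.
Lgals3, chr14:47373610-47373909, plus strand: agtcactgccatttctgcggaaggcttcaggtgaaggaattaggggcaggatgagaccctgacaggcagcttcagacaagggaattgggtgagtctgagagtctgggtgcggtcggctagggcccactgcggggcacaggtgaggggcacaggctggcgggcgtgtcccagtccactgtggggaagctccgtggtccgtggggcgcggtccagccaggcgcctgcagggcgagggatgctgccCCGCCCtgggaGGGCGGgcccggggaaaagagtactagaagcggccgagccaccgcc
Slc16a3, chr11:120948817-120949116, plus strand: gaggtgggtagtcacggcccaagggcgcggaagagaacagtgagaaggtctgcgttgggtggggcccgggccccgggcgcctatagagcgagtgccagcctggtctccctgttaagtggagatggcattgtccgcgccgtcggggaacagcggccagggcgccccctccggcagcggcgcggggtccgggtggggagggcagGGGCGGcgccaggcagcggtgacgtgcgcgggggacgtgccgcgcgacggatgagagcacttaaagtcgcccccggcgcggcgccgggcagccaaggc
Pkm, chr9:59656326-59656625, plus strand: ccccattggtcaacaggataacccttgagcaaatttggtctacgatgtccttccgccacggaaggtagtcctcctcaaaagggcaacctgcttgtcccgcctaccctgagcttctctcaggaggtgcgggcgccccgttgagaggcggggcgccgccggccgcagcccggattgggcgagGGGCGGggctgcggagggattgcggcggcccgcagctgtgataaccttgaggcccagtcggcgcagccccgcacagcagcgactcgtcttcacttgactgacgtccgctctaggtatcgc
Gjb6, chr14:57133562-57133861, minus strand: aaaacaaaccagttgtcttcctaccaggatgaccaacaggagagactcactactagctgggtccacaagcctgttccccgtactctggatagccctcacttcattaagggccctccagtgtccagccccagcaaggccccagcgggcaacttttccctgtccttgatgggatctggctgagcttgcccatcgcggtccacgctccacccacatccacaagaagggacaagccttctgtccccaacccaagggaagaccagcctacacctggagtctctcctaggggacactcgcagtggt
At Lgals3 the peaks ran from 47373710 to 47374185 in 5XFAD 1 and from 47373856 to 47374511 in 5XFAD 2, over the start site at 47373860. Both 5XFAD microglia lists and neither WT microglia list had a peak over this promoter, although all 4 had one at an end of the gene. At Slc16a3 they ran from 120948636 to 120948904 and from 120948894 to 120949071, so the 2 libraries marked neighbouring parts of the promoter and met only at the edge. The Pkm peaks, 59656002 to 59656431 in WT 1 and 59656026 to 59656398 in WT 2, covered its upstream part, and the nearest 5XFAD peaks were 38617 and 38629 bases away. At Gjb6 the peaks ran from 57133501 to 57133775 and from 57133471 to 57133651, over the start site at 57133611, and the nearest 5XFAD peaks were 17193 and 169221 bases away. The promoter of Gjb6 holds no GC box, and that of Lgals3 holds 2.

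MicroRNA genes gave a small set of gains and losses. Of 1005 RefSeq hairpins, 9 (0.896%) had a 5XFAD-only region within 1 kb, 7 (0.697%) a WT-only region, 34 a region of all 4 lists and 839 no peak. The mature sequences below were chosen after the values were seen, as the brain-expressed or widely conserved members; seeds (bases 2 to 8) are in capitals.
miR-128-3p, WT-only: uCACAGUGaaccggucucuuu
miR-181a-5p, WT-only: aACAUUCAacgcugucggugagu
miR-181b-5p, WT-only: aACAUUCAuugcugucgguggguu
miR-26a-5p, WT-only: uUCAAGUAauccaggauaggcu
miR-744-5p, 5XFAD-only: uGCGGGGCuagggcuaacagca
miR-423-5p, 5XFAD-only: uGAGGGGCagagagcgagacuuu
The hairpin Mir128-2 lies inside Arpp21, a gene of neurons, and a WT-only region (chromosome 9, 112118385 to 112118805) covered it at percentiles 86.4 in WT 1 and 81.8 in WT 2. Mir181a-1 and Mir181b-1, whose 5p products share the seed ACAUUCA, lay 443 and 266 bases from 1 WT-only distal region (22.6 and 13.5). Mir26a-1, inside Ctdspl, lay 76 bases from a WT-only region (48.7 and 15.3). Ctdspl, a phosphatase gene, held 5 WT-only intragenic regions and no 5XFAD-only one. None of these 3 WT-only regions had a peak in any microglia list. A 5XFAD-only region (chromosome 11, 65734605 to 65734889; 62.4 and 69.3) covered Mir744 inside Map2k4, also without a microglia peak. Mir423 lay 112 bases from a 5XFAD-only region at an end of Nsrp1 (96.5 and 84.9), which all 4 microglia lists held.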

How the data were processed

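The authors deposited 1 headerless peak list per library, with a chromosome, start, end and score for each peak. The submitters' processing notes name the build GRCm38 (mm10) and the tools Bowtie2, deepTools and fastp 0.19.6. For the peak caller, its threshold, a control library and the unit of the deposited score, the entry is: not given in the sources used here. No score is below 20. Starts were taken as counted from 0 and are printed from 1. Overlaps were computed in Python 3.11.15 with numpy 2.4.6 and pandas 2.3.3, and the code for overlaps was checked on simulated lists.

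Genes, promoters and hairpins came from RefSeq (GRCm38.p6): 21887 protein-coding genes on chromosomes 1 to 19, X and Y, of which 17492 have a promoter sequence. Groups and replicate numbers came from the sample titles. Values per library were tested by exact permutation, two-sided, with 6 possible assignments. Named genes were one-genotype members of 20 gene lists (371 distinct genes), the 10 highest-scoring one-genotype regions of each location and direction (20 at gene ends), the 5 genes with the most intragenic regions, with ties, and Thy1, Xist and Y-linked genes. The groups, gene lists and rules were chosen with earlier results of these data known. At most 192 intervals were identical between any 2 of the 4 lists, so none was counted as a copy. Alternatives were equal numbers of peaks, score filters, other windows and merging, a replicate block and leaving out each library. Results of some genes are not reported here.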

Additional observations from a re-analysis of the deposited data

Results flagged for a closer look

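The distal share of peaks moved in opposite directions in the 2 cell preparations. In total cells 5XFAD minus WT was -0.985 percentage points, and in microglia it was 0.516 points, with 19.2% and 19.1% in WT and 19.9% and 19.5% in 5XFAD libraries. The libraries of the 2 genotypes did not overlap in either preparation. The difference between the preparations was -1.50 points. An exact two-sided permutation test over the 36 arrangements of genotypes within preparations gave p = 0.0556, the smallest it can give, so it cannot pass 0.05. The value was flagged for this opposite order without overlap, and any value with that order gets this p, so the test adds no support. In total cells the genotypes overlapped with a score of at least 50 (-0.278 points) and with the higher-scoring 50% of each list (-0.431 points).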

How the results depend on the processing

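Apart from leaving out a library, 88 recomputed values were counts within 1.5 times the reported one or differences of the same direction, 16 counts moved by more than 1.5 times and 1 value reversed. The 88 include every value of the replicate block, which by construction equals the reported one. Some differences changed in size: with a score of at least 50 the distal share became -0.278, the gene-end share -2.13 and the median width 49 bp (64.5 bp with equal numbers). The reversed one was the gene-end share of peaks with equal numbers (0.430 in place of -1.17). With a score of at least 50, 5XFAD-only regions numbered 2572 (1399 intragenic, 479 distal) and WT-only regions 1251 (296 gene-end, 679 intragenic, 276 distal). With the higher-scoring 50% of each list they numbered 2226 (1203 and 418) and 1288 (315, 689 and 284). Genes whose windows overlap no other gave 300 5XFAD-only and 154 WT-only gene-end genes. Fewer peaks or genes enter each of these settings.

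Leaving out 1 library gave 5595 to 15616 5XFAD-only regions (1339 to 2981 gene-end, 3203 to 9574 intragenic, 1053 to 3061 distal) and 1005 to 1614 genes. It gave 3170 to 9091 WT-only regions (693 to 1677, 1740 to 5337 and 737 to 2077) and 534 to 1040 genes. The difference in peaks per list ranged from -1100 to 9060, that in covered length from -0.0879 to 6.06 Mb and that in gene-end share from -2.98 to 0.631. All 3 reversed without 5XFAD 1, the longest list. Whether replicate numbers pair the libraries is not known. Over the 53199 regions, the difference WT 1 minus WT 2 had a correlation of -0.0103 with that of 5XFAD 1 minus 5XFAD 2. Such a value cannot show whether libraries of the same number were prepared together. With the replicate block the counts are by construction the same (4202 and 2506 regions, 879, 2491, 832, 494, 1388 and 624 by location, 680 and 358 genes), and each test over the lists gave p = 0.5 (exact paired permutation), the smallest it can give. The lists hold no counts, so what depth limits could not be measured.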
